A study of Mus musculus with 4 samples.

Results

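The T cell receptor variable (V) segments were read in droplet libraries of intraepithelial leukocytes, the immune cells that lie among the epithelial cells of the gut wall. Every symbol that begins with Trav, Trbv, Trgv or Trdv was taken, pseudogenes included, which gave 106 segments out of 16500 symbols listed over the 4 libraries. They comprised 81 Trav, 19 Trbv, 1 Trgv and 5 Trdv symbols. The stomach file listed 17 of them (10 Trav, 2 Trbv, 1 Trgv, 4 Trdv) among 14541 symbols, and the small intestine file 68 (48, 14, 1 and 5) among 15320. The cecum file listed 75 (54, 15, 1 and 5) among 14172, and the colon file 96 (71, 19, 1 and 5) among 14862. Only 12 segments were listed in all 4 files and 26 in a single file. A symbol that a file does not list is not given as 0, since nearly all listed symbols had UMIs in at least 3 barcodes.

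The libraries came from stomach, small intestine, cecum and colon of C57BL/6 mice with no infection, 1 library per tissue. Live CD45.2+ leukocytes had been sorted and loaded on the 10x Genomics 3′ chip, and a value is a count of UMIs, that is, of separate RNA molecules, with no scaling by transcript length. The labels give no sex, age or number of animals, and the extraction text names the colon in all 4 records. With 1 library per tissue no test between tissues is possible, so each share has an exact Clopper-Pearson 95% interval and each ratio an exact conditional binomial 95% interval, which cover counting error only.

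A T cell receptor chain is built by joining V, D and J segments at the DNA level and splicing the result to a constant region. Trav and Trbv segments serve the alpha and beta chains of alpha-beta T cells, and Trdv and Trgv segments the delta and gamma chains of gamma-delta T cells. The delta locus lies inside the alpha locus, so that some Trav segments, whose names carry "dv", can also be used in delta chains. Gamma-delta cells are abundant among intraepithelial lymphocytes of the mouse gut, where most use the gamma segment Trgv7. The V segment lies at the 5′ end of the rearranged transcript, while the 3′ chemistry reads mainly near the 3′ end. A V UMI therefore comes from a minority of receptor molecules, does not show that the receptor is productive, and can also come from an unrearranged segment.

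Barcodes with at least 1 UMI of Cd3d, Cd3e or Cd3g, which encode the signalling chains of the receptor, were called Cd3-positive, and they were divided by whether they held a UMI of the delta constant region Trdc. There were 55 Trdc-positive and 314 Trdc-negative barcodes in the stomach, 1719 and 866 in the small intestine, 528 and 3006 in the cecum, and 930 and 2498 in the colon. Cd3-positive barcodes made up 11.5% of the stomach library, against 81.5%, 83.3% and 91.1% of the small intestine, cecum and colon libraries. The stomach Cd3-positive barcodes also held more markers of other leukocytes: the NK receptor gene Ncr1 was seen in 17.1% and the mast cell protease gene Cpa3 in 18.4% of them, against at most 1.84% and 1.97% in the other libraries. Median depth was 2725 UMIs in Trdc-positive and 2611.5 in Trdc-negative barcodes of the stomach, 2397 and 2254 in the small intestine, 1894.5 and 1744 in the cecum, and 3344.5 and 2908.5 in the colon. Between 10 and 14 barcode sequences of each library also occurred in another library. Barcodes with no Cd3 UMI and at least 2 UMIs of B cell marker genes, among them Cd79a, Cd79b and Ms4a1, served as a background of B cells, which should hold no rearranged T cell receptor. There were 110, 221, 562 and 181 of these in stomach, small intestine, cecum and colon, with median depths of 2541.5, 10005, 1234 and 1942 UMIs.

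Several segments exist in near-identical copies, which sets how far their counts can be told apart. The last 60 bases of the annotated coding part are shown for the Trav15 copies, which the Trdc comparison turned on, with capitals at the 13 positions that differ among them. Sequences and positions are from the GENCODE M21 annotation of GRCm38.
Trav15-1-dv6-1: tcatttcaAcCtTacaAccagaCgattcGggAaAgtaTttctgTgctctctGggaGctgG
Trav15d-1-dv6d-1: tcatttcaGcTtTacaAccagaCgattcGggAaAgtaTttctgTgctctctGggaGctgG
Trav15n-1: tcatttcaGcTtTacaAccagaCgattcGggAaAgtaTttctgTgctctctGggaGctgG
Trav15-2-dv6-2: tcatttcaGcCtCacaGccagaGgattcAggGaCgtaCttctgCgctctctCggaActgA
Trav15d-2-dv6d-2: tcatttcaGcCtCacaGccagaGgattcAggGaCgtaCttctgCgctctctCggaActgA
Trav15n-2: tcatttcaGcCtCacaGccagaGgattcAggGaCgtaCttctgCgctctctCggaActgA
All 6 lie on the plus strand of chromosome 14, Trav15-1-dv6-1 at chr14:53559632-53560247, Trav15-2-dv6-2 at chr14:53649404-53649994, Trav15d-1-dv6d-1 at chr14:52863299-52863936, Trav15d-2-dv6d-2 at chr14:52956782-52957400, Trav15n-1 at chr14:53174325-53174896 and Trav15n-2 at chr14:53267917-53268535. The d and n letters name duplicated blocks of the locus. Trav15d-1-dv6d-1 and Trav15n-1 were identical over 352 bases, as were Trav15d-2-dv6d-2 and Trav15n-2, so counts of single copies are uncertain. Of 80 Trav segments with a usable alignment, 69 had a relative at 95% identity or more and 24 had an identical one, whereas none of 16 Trbv segments reached 95%.

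Several of the gamma and delta segments reported below are shown in the same way. The capital TGT marks the codon of the conserved cysteine near the 3′ end of the segment.
Trgv2: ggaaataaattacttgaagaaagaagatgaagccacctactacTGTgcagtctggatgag
Tcrg-V1: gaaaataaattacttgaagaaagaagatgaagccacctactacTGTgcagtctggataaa
Tcrg-V7: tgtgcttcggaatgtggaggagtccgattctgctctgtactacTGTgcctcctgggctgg
Trdv5: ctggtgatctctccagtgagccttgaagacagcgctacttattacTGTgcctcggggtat
Trdv4: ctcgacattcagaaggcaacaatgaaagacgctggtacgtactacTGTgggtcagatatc
Trdv2-1: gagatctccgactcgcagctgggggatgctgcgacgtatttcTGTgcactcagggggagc
Trdv2-2: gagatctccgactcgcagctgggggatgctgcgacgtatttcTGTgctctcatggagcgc
Trgv2 lies at chr13:19336573-19337167 on the minus strand. Of the delta segments, Trdv1 lies at chr14:53881612-53882217, Trdv2-1 at chr14:53946073-53946660, Trdv2-2 at chr14:53960944-53961602 and Trdv4 at chr14:54074905-54075515. Trdv5, at chr14:54148662-54149294, is on the opposite strand to them. Trgv2 matched Tcrg-V1 at 94.9% and Trdv2-1 matched Trdv2-2 at 92.3% of aligned bases. The files list the other gamma segments under the names Tcrg-V1 and Tcrg-V3 to Tcrg-V7, which do not begin with Trgv. Their values are given beside Trgv2 but they are not counted among the 106.

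How often a V segment was detected differed between the libraries. At least 1 of the 106 segments was seen in 21.7% of Cd3-positive barcodes of the stomach, 53.2% of the small intestine, 29.0% of the cecum and 60.4% of the colon. After each barcode was thinned to 1000 UMIs, which sets the libraries at one depth, these shares were 11.4%, 28.4%, 17.3% and 30.1%. The median listed segment was seen in 1.08%, 0.193%, 0.198% and 0.350% of Cd3-positive barcodes. Any Trbv was seen in 1.63%, 3.06%, 4.30% and 11.1%, although an alpha or beta constant region (Trac, Trbc1, Trbc2) gave a UMI in 89.2%, 97.3%, 98.4% and 99.1%. In B-marker barcodes 1, 3, 0 and 1 of the segments had a UMI in the 4 libraries, each in at most 0.909% of barcodes.

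Among gamma segments, Trgv2 took the most UMIs in each of the 4 libraries, and it was frequent without Trdc as well as with it. Trgv2 belongs to the cluster of gamma genes that ends in the constant region Tcrg-C2. It was seen in 17 stomach Cd3-positive barcodes (4.61%, interval 2.71 to 7.27), 659 of the small intestine (25.5%, 23.8 to 27.2), 513 of the cecum (14.5%, 13.4 to 15.7) and 1340 of the colon (39.1%, 37.5 to 40.7). The 4 intervals did not overlap, and the order from low to high was stomach, cecum, small intestine and colon. Thinned shares kept that order, at 1.36%, 8.24%, 11.8% and 15.9%. In B-marker barcodes Trgv2 was seen in 0 of 110, 221, 562 and 181, the small intestine ones being deeper than its T cells.

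Trgv2 was seen in 29.5% of Trdc-positive barcodes (27.3 to 31.7) against 17.6% of Trdc-negative barcodes (15.1 to 20.3) in the small intestine. In the cecum the shares were 17.4% (14.3 to 20.9) and 14.0% (12.8 to 15.3), which overlap, and in the colon 45.4% (42.1 to 48.6) and 36.7% (34.9 to 38.7). Stomach shares were 12.7%, from 7 Trdc-positive barcodes, and 3.18%, from 10 Trdc-negative ones. On summed UMIs, Trgv2 reached 131 CPM (UMIs of the segment scaled to a fixed total of the same barcodes) in Trdc-positive and 71.2 CPM in Trdc-negative barcodes of the small intestine, a ratio of 1.85 (1.57 to 2.18). The ratio was 1.05 (0.849 to 1.29) in the cecum, with 91.2 and 86.7 CPM, and 1.09 (0.99 to 1.19) in the colon, with 189 and 174 CPM. None of these ratios reached the 2-fold needed for a call. With the Trdc-negative sum held to barcodes that also had a Trac UMI, a setting chosen after seeing the data, the log2 ratios of Trgv2 were 0.67, 0.08 and 0.05 in small intestine, cecum and colon.

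Tcrg-V7, the gamma segment of most intestinal gamma-delta cells, divided by Trdc much more sharply. It was seen in 9.48% of Trdc-positive and 1.27% of Trdc-negative barcodes of the small intestine, 2.46% and 0.466% in the cecum, and 9.68% and 1.08% in the colon. The stomach file did not list it. Its CPM ratios were 8.34, 4.51 and 8.39 in small intestine, cecum and colon, all called higher. Other gamma segments were called higher too. In the small intestine these were Tcrg-V3, at 10.2 from 37 and 2 UMIs, Tcrg-V4, at 2.13, and Tcrg-V1, at 2.08. In the cecum they were Tcrg-V3, at 2.77, and Tcrg-V4, at 2.06. In the colon Tcrg-V3, at 1.48, Tcrg-V4, at 1.64, and Tcrg-V1, at 1.52, were not called. Tcrg-V1 lay between Trgv2 and Tcrg-V7 in this respect, with 9.71% of Trdc-positive and 5.20% of Trdc-negative barcodes in the small intestine, 8.90% and 4.99% in the cecum, and 21.7% and 13.7% in the colon. Trgv2 took 38.9%, 57.0%, 52.6% and 56.8% of all gamma V UMIs in Trdc-positive barcodes of stomach, small intestine, cecum and colon, and 62.5%, 68.7%, 67.3% and 68.8% in Trdc-negative ones. More than 1 gamma segment was seen in 10.7%, 19.9%, 11% and 30.4% of the barcodes that held any.

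**Figure D1:**
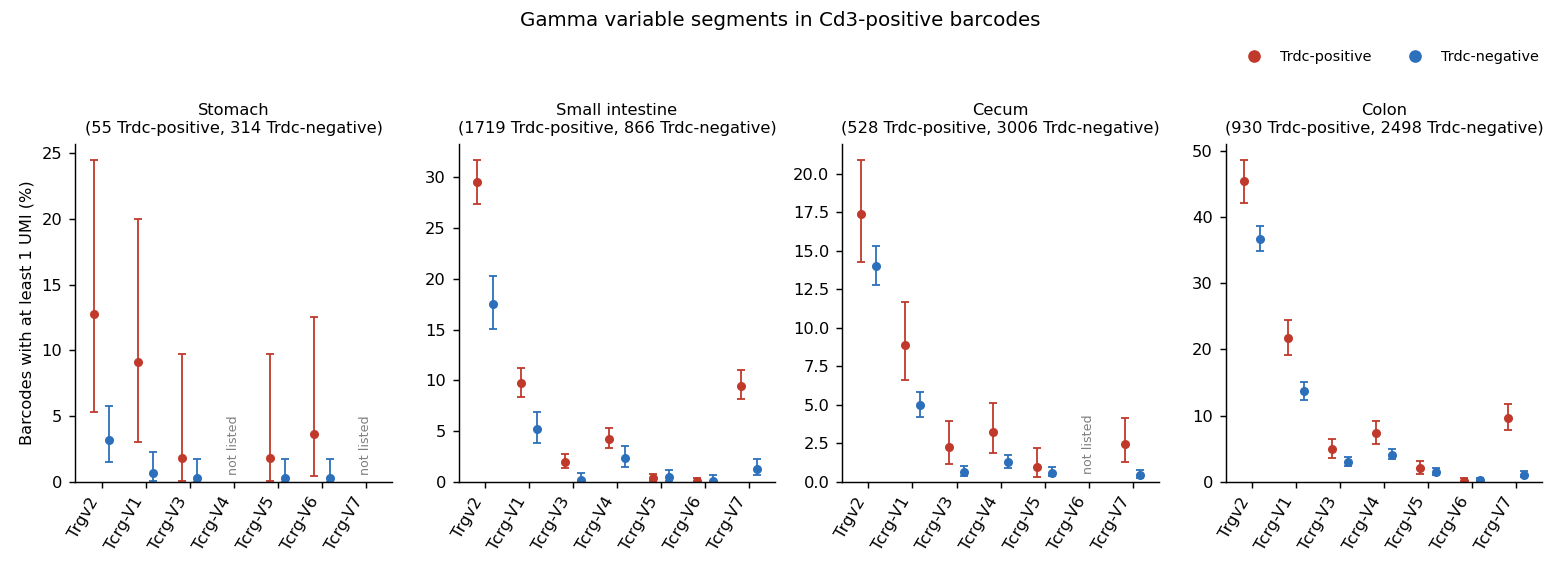
Share of Cd3-positive barcodes (%) with at least 1 UMI of each gamma V segment, 1 panel per library, in Trdc-positive (left, red) and Trdc-negative (right, blue) barcodes, with exact 95% intervals as bars. Trgv2 is high on both sides, at 45.4% and 36.7% in the colon, whereas Tcrg-V7 is at 9.68% and 1.08% there.

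The Trdc-negative barcodes that held Trgv2 differed in other genes from those that did not, in the largest number of genes in the colon, where the most Trdc-negative barcodes held it. For this, 42 genes listed for the purpose were compared after thinning to 1000 UMIs. In the colon, 918 Trdc-negative barcodes with Trgv2 (median 3316 UMIs before thinning) stood against 1571 without it (2767 UMIs), and the intervals of 17 genes lay apart, 10 higher and 7 lower with Trgv2. Cd8a, the CD8 alpha chain that intestinal lymphocytes often carry as a homodimer, was seen in 54.1% with and 37.6% without Trgv2. Cd8b1, which conventional CD8 T cells carry as the partner of Cd8a, was found in 1.42% and 4.07%, and Cd4 in 0.109% and 1.78%. Fcer1g, a signalling adaptor of innate-like lymphocytes, was seen in 73.5% and 61.7%, Cd160 in 63.7% and 49.6%, and Itgae, an integrin gene that anchors lymphocytes to the epithelium, in 22.3% and 14.9%.

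Genes of naive and recirculating T cells ran the other way in the same colon barcodes. Klf2, a transcription factor that controls exit from tissue, was seen in 16.9% of Trdc-negative barcodes with Trgv2 and 35.2% without it. Its target S1pr1 was seen in 4.58% and 12.1%, the lymph node homing receptor gene Ccr7 in 0.871% and 5.22%, and Lef1 in 5.23% and 10.8%. Tcrg-C2 was seen in 7.73% and 4.14%, while Trac was seen in 551 of 918 with Trgv2 and 904 of 1571 without it (57.5%), with overlapping intervals.

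The small intestine and cecum gave the same direction for Cd8a, Klf2 and Tcrg-C2 in Trdc-negative barcodes. In the small intestine, 152 barcodes with Trgv2 and 714 without it had Cd8a in 73.7% and 49.9%, Fcer1g in 77.6% and 54.9%, Klf2 in 5.26% and 16.1%, and Tcrg-C2 in 12.5% and 4.48%. In the cecum, 418 and 2534 barcodes had Cd8a in 33.5% and 27.2%, Cd160 in 65.1% and 53.2%, Klf2 in 22.0% and 30.3%, and Tcrg-C2 in 8.37% and 4.26%. These were the 4 of 42 genes whose intervals lay apart in each of the 2 tissues. In Trdc-positive barcodes none of the 42 genes had separate intervals with and without Trgv2 in the small intestine, cecum or colon. Such differences were not particular to Trgv2. With Tcrg-V1, intervals of 11 of the 42 genes lay apart in colon Trdc-negative barcodes (341 with it, 2148 without), 6 higher and 5 lower. With Tcrg-V4 (103 and 2386) 7 lay apart there, 5 higher and 2 lower. In small intestine Trdc-negative barcodes 5 lay apart with Tcrg-V1. Over all segments, libraries and Trdc groups compared in this way, intervals lay apart in 128 of 3697 comparisons (3.46%).

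**Figure D2:**
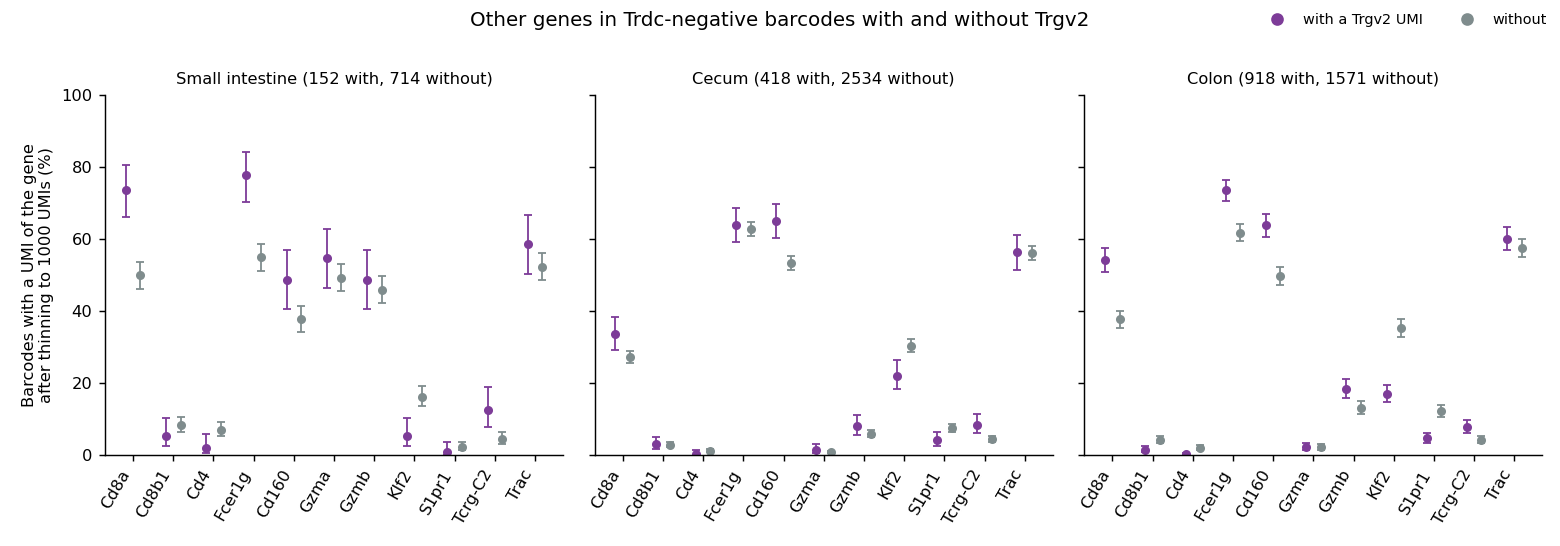
Share of Trdc-negative Cd3-positive barcodes (%) with a UMI of 11 genes after thinning to 1000 UMIs, with Trgv2 (left, purple) and without it (right, grey), in small intestine, cecum and colon; bars are exact 95% intervals. Cd8a is higher and Klf2 lower with Trgv2 in each of the 3 tissues, at 54.1% against 37.6% and 16.9% against 35.2% in the colon.

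Shares with granule genes differed by gamma segment inside the Trdc-positive barcodes of the small intestine and colon. With Tcrg-V1, the granzyme gene Gzma was seen in 56.3% of small intestine barcodes against 73.8% without it, and Gzmb in 50.3% against 67.8%. In the colon the same shares were 15.3% against 26.3% for Gzma and 31.7% against 45.8% for Gzmb. With Tcrg-V7 the colon shares lay on the other side, at 40.0% against 22.2% for Gzma and 71.1% against 39.7% for Gzmb, and Cd8a was at 55.6% against 36.5%. All of these interval pairs lay apart. In the cecum, with 47 Trdc-positive barcodes holding Tcrg-V1 and 473 without it, 0 of the 42 genes had intervals apart, and Gzmb was at 19.1% against 19.9%.

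Delta segments divided by Trdc, and Trdv5 had the highest ratios among Trdv segments in small intestine, cecum and colon. Trdv5 was seen in 252 of 1719 Trdc-positive barcodes of the small intestine (14.7%, 13.0 to 16.4) and 7 of 866 Trdc-negative ones (0.808%). In the cecum it was seen in 51 Trdc-positive (9.66%, 7.28 to 12.5) and 4 Trdc-negative barcodes (0.133%), and in the colon in 133 (14.3%, 12.1 to 16.7) and 4 (0.16%). In the stomach 3 Trdc-positive barcodes (5.45%) and 0 of 314 Trdc-negative barcodes held it, where 3 counts would be a share of 0.955% and the exact interval reaches 1.17%. Trdv5 CPM was 58.0 in Trdc-positive and 2.56 in Trdc-negative barcodes of the small intestine, a ratio of 22.7 (10.9 to 56.9). The ratio was 65.5 (24.2 to 249) in the cecum and 89.7 (34.3 to 333) in the colon.

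Trdv2-2 and its close relative Trdv2-1 were also higher with Trdc outside the stomach. Trdv2-2 was seen in 13.6% of Trdc-positive and 2.66% of Trdc-negative barcodes of the small intestine, a CPM ratio of 6.89 (4.54 to 10.9). In the cecum the shares were 5.11% and 0.798%, with a ratio of 5.89 (3.47 to 10.1), and in the colon 12.8% and 1.24%, with a ratio of 9.93 (6.79 to 14.9). Trdv2-1 had ratios of 8.85, 3.73 and 8.99 in the same tissues, from shares of 4.36%, 1.89% and 4.73% of Trdc-positive barcodes against 0.577%, 0.399% and 0.48% of Trdc-negative ones. Both were often counted in the same barcode: Trdv2-2 was seen after thinning in 25.3% of small intestine Trdc-positive barcodes with Trdv2-1 and 5.17% of those without it, and in 27.3% and 3.39% in the colon.

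In the stomach Trdv2-2 was not called, at 5 of 55 Trdc-positive (9.09%) and 14 of 314 Trdc-negative barcodes (4.46%), with a CPM ratio of 1.80 (0.588 to 4.69). NK markers were counted in the same barcodes, where the numbers were small. Of the 369 stomach Cd3-positive barcodes, 120 held at least 2 UMIs of the NK and ILC1 markers Ncr1, Klrb1c, Eomes and Klre1. Trdv2-2 was seen in 9.18% (9 of 98) of the Trdc-negative barcodes with these markers and 2.31% (5 of 216) of those without. The part of these cells in the stomach Trdv2-2 share was not tested further.

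Trdv1 divided less sharply by Trdc than Trdv5 and Trdv2-2 in the cecum and colon. In the small intestine it was seen in 4.19% of Trdc-positive and 0.693% of Trdc-negative barcodes and was called higher, with a ratio of 5.96 (3.01 to 13.4). In the cecum it was seen in 10 Trdc-positive (1.89%) and 33 Trdc-negative barcodes (1.10%), a ratio of 1.18 (0.529 to 2.40), and in the colon in 30 (3.23%) and 39 (1.56%), a ratio of 1.66 (1.08 to 2.52). It was listed in 3 of the files, the stomach file being the exception. Trdv1 took 8.85% of Trdv UMIs in Trdc-positive barcodes of the cecum and 46.1% in Trdc-negative ones, and 10.2% and 48.7% in the colon. In small intestine Trdc-positive barcodes with Trdv1, the gut homing receptor gene Ccr9 was seen in 47.2% against 28.7% without it, Gzmb in 51.4% against 66.8% and Fcer1g in 61.1% against 75.2%.

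Trdv4 had its highest level in the stomach. In other mouse tissues it pairs with the gamma segments Trgv5 and Trgv6 in gamma-delta cells that arise in the fetal thymus, and cells with Trgv6 are known makers of interleukin 17. It was seen in 9 of 55 stomach Trdc-positive barcodes (16.4%, 7.77 to 28.8) and 5 of 314 Trdc-negative ones (1.59%). Shares of Trdc-positive and Trdc-negative barcodes were 0.582% and 0.693% in the small intestine and 1.18% and 0.36% in the colon, and the cecum had 4 and 3 barcodes. Its colon CPM ratio of 3.41 (1.49 to 8.13) was called.

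In stomach Trdc-positive barcodes, Cd163l1, a scavenger receptor gene of interleukin 17 producing gamma-delta cells, was seen in 8 of 9 with Trdv4 and 4 of 46 without it. The cytokine gene Il17a was seen in 3 of 9 and 4 of 46, and Tcrg-V6 in 2 of 9 and 0 of 46. After thinning, Cd163l1 was at 77.8% and 6.52%, whereas Fcer1g was at 11.1% and 69.6%, both with intervals apart. The NK marker Ncr1 was seen in 0 of 9 and 15 of 46. All 5 Trdc-negative barcodes with Trdv4 were among the 98 with NK markers.

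**Figure D3:**
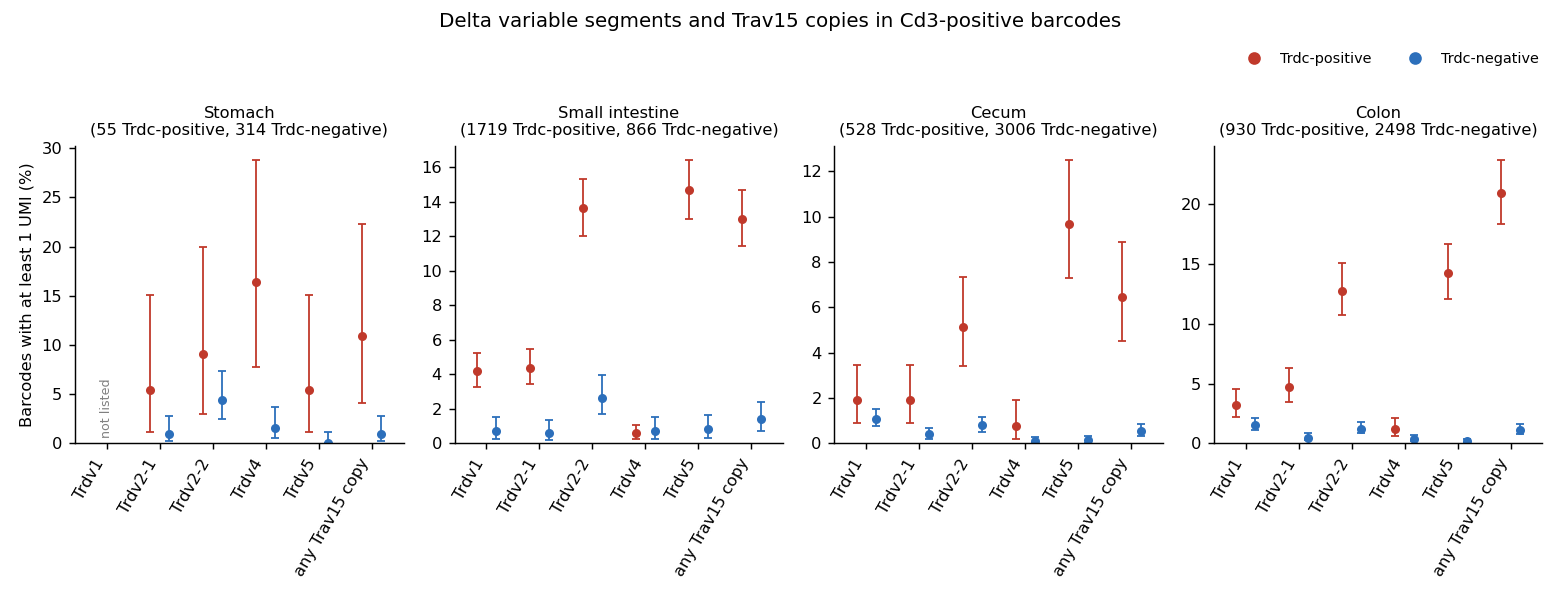
Share of Cd3-positive barcodes (%) with at least 1 UMI of each Trdv segment and of any Trav15 copy, 1 panel per library, in Trdc-positive (left, red) and Trdc-negative (right, blue) barcodes, with exact 95% intervals. Trdv5 is at 14.7%, 9.66% and 14.3% with Trdc in small intestine, cecum and colon and under 1% without it, and Trdv4 is highest in the stomach Trdc-positive barcodes, at 16.4%.

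The Trav15 copies behaved like delta segments. Any Trav15 copy was seen in 6 of 55 Trdc-positive (10.9%) and 3 of 314 Trdc-negative barcodes (0.955%) of the stomach. The shares were 13.0% (11.4 to 14.7) and 1.39% (0.718 to 2.41) in the small intestine, 6.44% (4.50 to 8.88) and 0.532% (0.305 to 0.863) in the cecum, and 21% (18.4 to 23.7) and 1.16% (0.779 to 1.66) in the colon. In B-marker barcodes of each library any Trav15 copy was at 0. No Trdc-positive interval overlapped its Trdc-negative one. Segments with a dv name together were seen in 9.09% and 1.27%, 14.0% and 2.31%, 7.95% and 1.46%, and 22.0% and 2.84% of Trdc-positive and Trdc-negative barcodes of stomach, small intestine, cecum and colon. Trav segments with no dv name had shares of 5.45% and 5.10%, 8.73% and 10.6%, 6.63% and 7.35%, and 15.8% and 17%, with overlapping intervals in each library. That set includes Trav15n-2, whose sequence is identical to that of a dv copy. The overlap therefore does not show how the other alpha segments divide by Trdc. In the colon 13 segments of the set had enough UMIs for a ratio. Trav15n-2 was called higher and 5 were called lower, beside 1.63% and 3.87% of all genes.

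The single Trav15 copies followed the same pattern with fewer UMIs. Trav15d-2-dv6d-2 was seen in 4.13% of Trdc-positive and 0.462% of Trdc-negative barcodes of the small intestine and in 8.49% and 0.52% of the colon, with CPM ratios of 10.9 and 16.6. Trav15n-2, whose name carries no dv, had 47 and 1 UMIs in the small intestine, a ratio of 26.0 (4.44 to 1048), and 77 and 5 UMIs in the colon, a ratio of 36.1 (14.8 to 114). Trav15d-1-dv6d-1 had ratios of 9.29 and 39.9, Trav15-2-dv6-2 of 10.9 and 13.0, and Trav15-1-dv6-1 of 6.63 and 16.0 in small intestine and colon. In colon Trdc-positive barcodes with any Trav15 copy, Klf2 was seen in 10.8% against 19.6% without, Fcer1g in 78.5% against 66.9% and Tcrg-V7 in 6.67% against 2.18%.

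Counts of called segments put these values beside all genes. A ratio was called where it was at least 2-fold with an interval that excluded 1, among genes with at least 20 UMIs over both sums, so that a segment could enter through the side on which it was high. In the small intestine 14 of 68 listed segments had enough UMIs, and 10 were called higher and 0 lower with Trdc, against 1.07% and 5.4% of all genes tested and 6.46% in either direction. In the cecum 7 of 75 entered, with 3 higher and 0 lower, against 1.53%, 1.17% and 2.7% of genes higher, lower and in either direction. In the colon 36 of 96 entered, with 11 higher and 9 lower, against 1.63%, 3.87% and 5.5% of genes. In the stomach 1 of 17 entered, Trdv2-2, which was not called, against 2.13% of genes called higher, 3.18% lower and 5.31% in either direction. The median log2 ratio of the segments that entered was 2.92, 0.92 and -0.36 in small intestine, cecum and colon, and 0.12, -0.03 and -0.03 for all genes.

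In the small intestine the 10 called segments were 4 Trdv segments (Trdv1, Trdv2-1, Trdv2-2, Trdv5), the 5 Trav15 copies with ratios given above and Trav13-4-dv7. In the cecum they were Trdv5, Trdv2-1 and Trdv2-2. In the colon the 11 higher segments were Trdv2-1, Trdv2-2, Trdv4, Trdv5, 5 Trav15 copies, Trav13-4-dv7 and Trav21-dv12. Trav13-4-dv7, with ratios of 8.29 in the small intestine and 5.36 in the colon, and Trav21-dv12, with 3.61 in the colon, were named after their values were seen.

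The 9 segments called lower with Trdc in the colon were alpha and beta segments. Trav4-4-dv10, the only one with a dv name, had 1 UMI in Trdc-positive and 33 UMIs in Trdc-negative barcodes and was 14.1-fold lower (2.36 to 573). Trav6-6 was 8.53-fold lower, with 1 against 20 UMIs, and Trav3d-3 8.10-fold lower, with 1 against 19. Trav16n had 0 against 39 UMIs and was 5.54-fold lower with the 0 entered as 3 counts over the group, its exact interval reaching down to 4.30-fold. Trav9-1 had 0 against 25 UMIs and was 3.55-fold lower in the same way, its interval reaching down to 2.68-fold. Trav6d-6, Trbv13-1, Trbv2 and Trbv12-2 were 4.12-fold, 3.70-fold, 2.82-fold and 2.25-fold lower. Trav6-6 and Trav6d-6 are identical in sequence, as are Trav3d-3 and Trav3n-3, so counts of these single copies are uncertain. Trav9-1 matched Trav9d-1 at 99.4%. Trav16n matched Trav16 at 97.7%, and Trav16, with 17 against 27 UMIs, was not called. Without barcodes that held a UMI of 8 markers of other cell types the colon count was 13 instead of 20, with 10 higher and 3 lower. Only 17 segments instead of 36 then had enough UMIs to be compared.

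**Figure D4:**
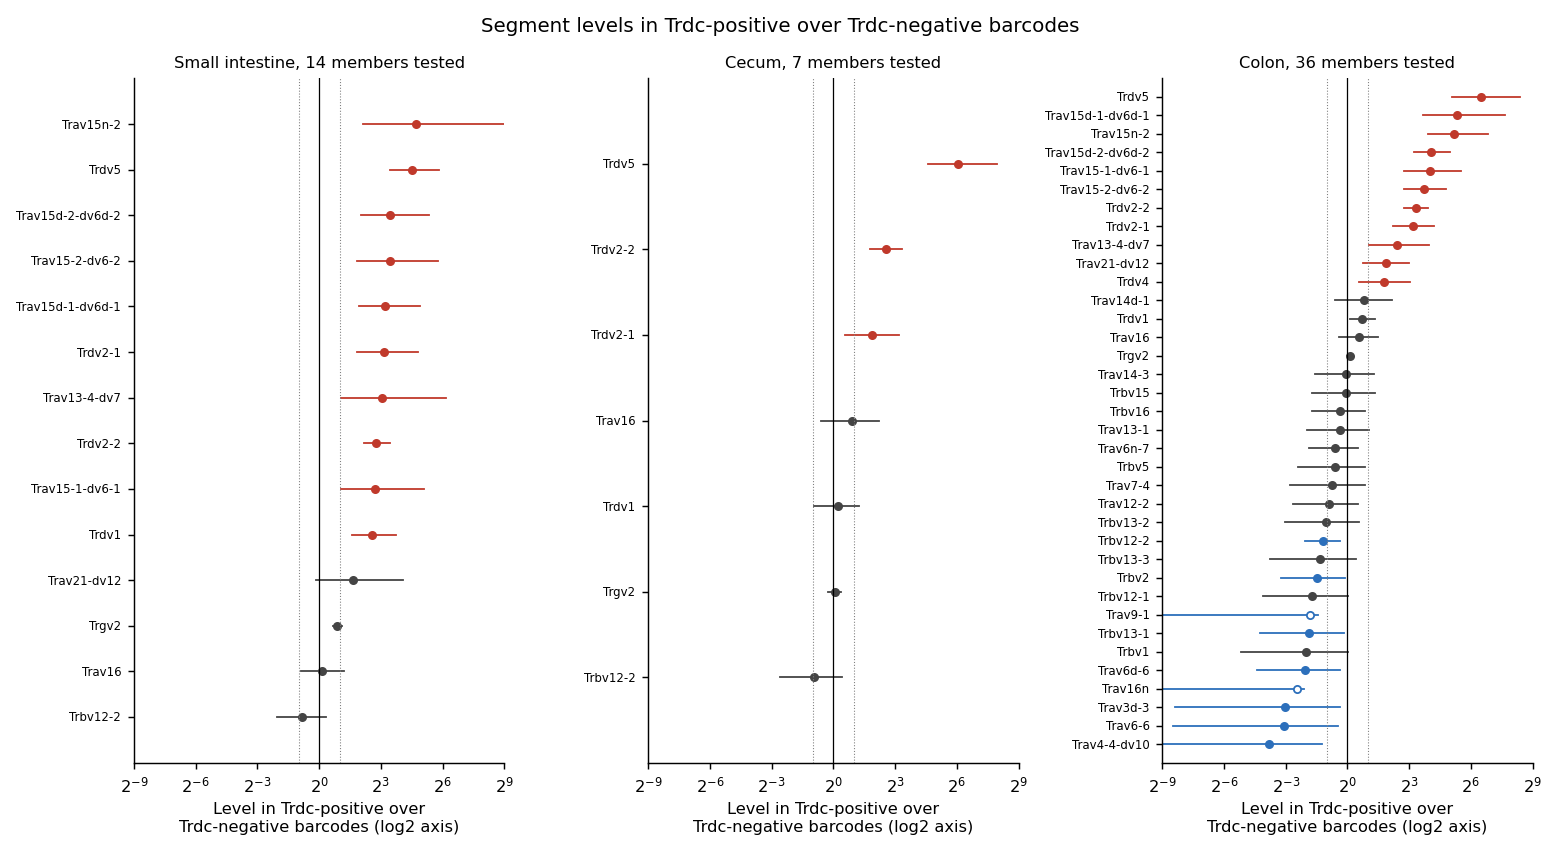
Ratio of CPM in Trdc-positive over Trdc-negative barcodes for V segments in small intestine, cecum and colon, on a log axis, with exact 95% intervals as lines; red points were called higher, blue lower and grey not called, open points are bounds with 0 entered as 3 counts, and dotted lines mark 2-fold. Trdv5 lies farthest right in the cecum and colon, at 65.5 and 89.7, and Trgv2 lies near 1 in both, at 1.05 and 1.09.

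Other receptor genes followed the Trdc split in part. Tcrg-C1 and Tcrg-C3, related gamma constant regions whose counts may mix, were higher with Trdc by 7.85-fold and 8.76-fold in the small intestine, 4.65-fold and 4.39-fold in the cecum, and 4.13-fold and 4.2-fold in the colon. Tcrg-C2 had ratios of 2.28, 1.52 and 1.17, and only that of the small intestine was called. The alpha constant region Trac was 6.15-fold lower with Trdc in the stomach (3.99 to 10.0) and 2.01-fold lower in the colon (1.90 to 2.11), at the edge of the 2-fold limit. It was 1.78-fold lower in the small intestine and 1.94-fold lower in the cecum, under that limit. Of the J and D segments with enough UMIs, 4 of 17 were called higher and 4 lower in the small intestine. These were 2 and 5 of 15 in the cecum, and 4 and 9 of 26 in the colon. Beside them stood 1.07% and 5.4%, 1.53% and 1.17%, and 1.63% and 3.87% of all genes. The delta joining segment Trdj1 was 14.1-fold, 31.4-fold and 56.4-fold higher with Trdc. Alpha joining segments made up the lower ones, and Traj12, Traj18 and Traj27 were among them in all 3 tissues. The higher ones were not all delta or gamma segments. The alpha segment Traj58 was 2.76-fold higher in the small intestine, with 60 against 12 UMIs, and was not called in the cecum or colon. The beta segment Trbj1-4 was 2.48-fold higher in the colon, with 18 against 17 UMIs. Of the recombination genes, Rag1 was not listed. Dntt was seen in 0.658% of small intestine Cd3-positive barcodes against 8.60% of B-marker barcodes there. These shares were not thinned, and the B-marker barcodes were deeper, at a median of 10005 against 2351 UMIs. Dntt was 4.07-fold lower with Trdc in the small intestine (1.99 to 8.82), with 12 against 27 UMIs, and was not called in the colon.

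Beta segments were seen in both Trdc groups outside the stomach, at lower shares with Trdc. Any Trbv was seen in 2.33% of Trdc-positive and 4.50% of Trdc-negative barcodes of the small intestine, 2.65% and 4.59% in the cecum, and 8.17% and 12.1% in the colon. In the stomach 0 of 55 Trdc-positive barcodes held one, where 3 counts would be 5.45% and the exact interval reaches 6.49%, and 1.91% of Trdc-negative barcodes did. Trbv12-2, at chr6:41118851-41119364 on the plus strand, took the most Trbv UMIs in each library. It was seen in 0.813%, 1.01%, 1.25% and 2.42% of Cd3-positive barcodes of stomach, small intestine, cecum and colon, and took 57.1% (4 of 7), 31.8%, 31.3% and 21.8% of Trbv UMIs. Trbv15 and Trbv13-2 came next in the cecum, at 0.453% and 0.368%, and Trbv2 and Trbv16 in the colon, at 0.963% and 0.846%. Trbv31 had 3, 4 and 7 UMIs in small intestine, cecum and colon. In colon Trdc-positive barcodes with any Trbv, Klf2 was seen in 30.3% against 16.6% without and Gzmb in 27.6% against 44.1%, and their Trdc share after thinning was 55.3% against 74.7%.

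Alpha segments were each rare. Trav16 was seen in 1.20%, 0.623% and 0.963% of Cd3-positive barcodes of small intestine, cecum and colon, and its Trdc ratios of 1.11, 1.89 and 1.48 in small intestine, cecum and colon were not called. Trav9-1 was seen in 0.309%, 0.424% and 0.642% of Cd3-positive barcodes of small intestine, cecum and colon, and in no Trdc-positive barcode of them. Trav11, the alpha segment of mouse invariant NKT cells, was seen in 4 stomach barcodes with 10 UMIs, 5 of the small intestine with 6 and 5 of the cecum with 5, all Trdc-negative, and the colon file did not list it. Trav1, the segment of mucosal-associated invariant T cells, and Trav11d were not listed.

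Between tissues, Trdv5 and Trdv2-2 were higher in the small intestine than in the cecum or colon. Small intestine Trdv5 was at 38.2 CPM against 8.14 CPM in the cecum, a ratio of 4.70 (3.53 to 6.34), and Trdv2-2 was at 42.0 against 8.70 CPM, a ratio of 4.83 (3.67 to 6.44). Trav15d-1-dv6d-1, Trav15-2-dv6-2 and Trav15n-2 had the highest ratios, 7.50 (3.99 to 15.6), 6.38 and 5.56. Of 23 segments with enough UMIs, 9 were called higher and 2 lower in the small intestine than in the cecum, against 7.7% and 6.2% of all genes. The lower ones were Trbv15, by 3.45-fold, and Trav9-1, by 2.56-fold. Without barcodes holding markers of other cell types, 10 of 15 were called higher, 0 lower and 8 of the calls were shared, and Trbv15 and Trav9-1 had too few UMIs left to be compared. Trdc itself was 3.87-fold higher in the small intestine, which moves with these values. In these summed barcodes fewer cells of a type and less RNA per cell cannot be told apart.

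Against the colon, the small intestine was higher in 5 and lower in 10 of 43 segments, with 5.95% and 5.54% of all genes called. The higher ones included Trdv5 at 2.90 (2.38 to 3.54), Trdv2-2 at 2.81 (2.33 to 3.39) and Trav15d-1-dv6d-1 at 2.55, and Trdc itself was 2.21-fold higher. Over all Cd3-positive barcodes the Trdv5 share was 10.0% in the small intestine and 4.0% in the colon. Within Trdc-positive barcodes it was 14.7% and 14.3%, with overlapping intervals. These shares were not thinned, and the colon Trdc-positive barcodes were deeper, at a median of 3344.5 against 2397 UMIs. Scaled to depth, Trdv5 was at 58.0 CPM in Trdc-positive barcodes of the small intestine and 43.0 CPM in those of the colon. Lower in the small intestine were 7 of 11 Trbv segments and 3 Trav segments without a dv name. The lowest ratios were those of Trav6d-6, 6.89-fold lower (2.16 to 35.2), Trbv12-1, 5.60-fold lower, and Trbv5, 4.95-fold lower, each with 3 UMIs in the small intestine. Trav6d-6 is identical in sequence to Trav6-6, so its own count is uncertain. Trgv2 was at 110 CPM in the small intestine and 179 CPM in the colon, a ratio of 0.615, which was not called. Without barcodes holding markers of other cell types, 6 segments were called instead of 15, with 5 higher and 1 lower. Only 20 segments instead of 43 then had enough UMIs to be compared.

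The cecum was called lower than the colon in 14 of 50 segments and higher in none, against 3.96% and 2.01% of all genes and 5.97% in either direction. Trav15n-2 was 6.14-fold lower, Trav15-2-dv6-2 4.79-fold and Trav15d-2-dv6d-2 3.56-fold lower in the cecum. Trgv2 was 2.05-fold lower (1.87 to 2.24), at 87.4 CPM in the cecum and 179 CPM in the colon. No Trdv segment was called, and Trdv5 was at 8.14 and 13.2 CPM. The median log2 ratio was -0.64 for the segments and 0.04 for all genes.

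**Figure D5:**
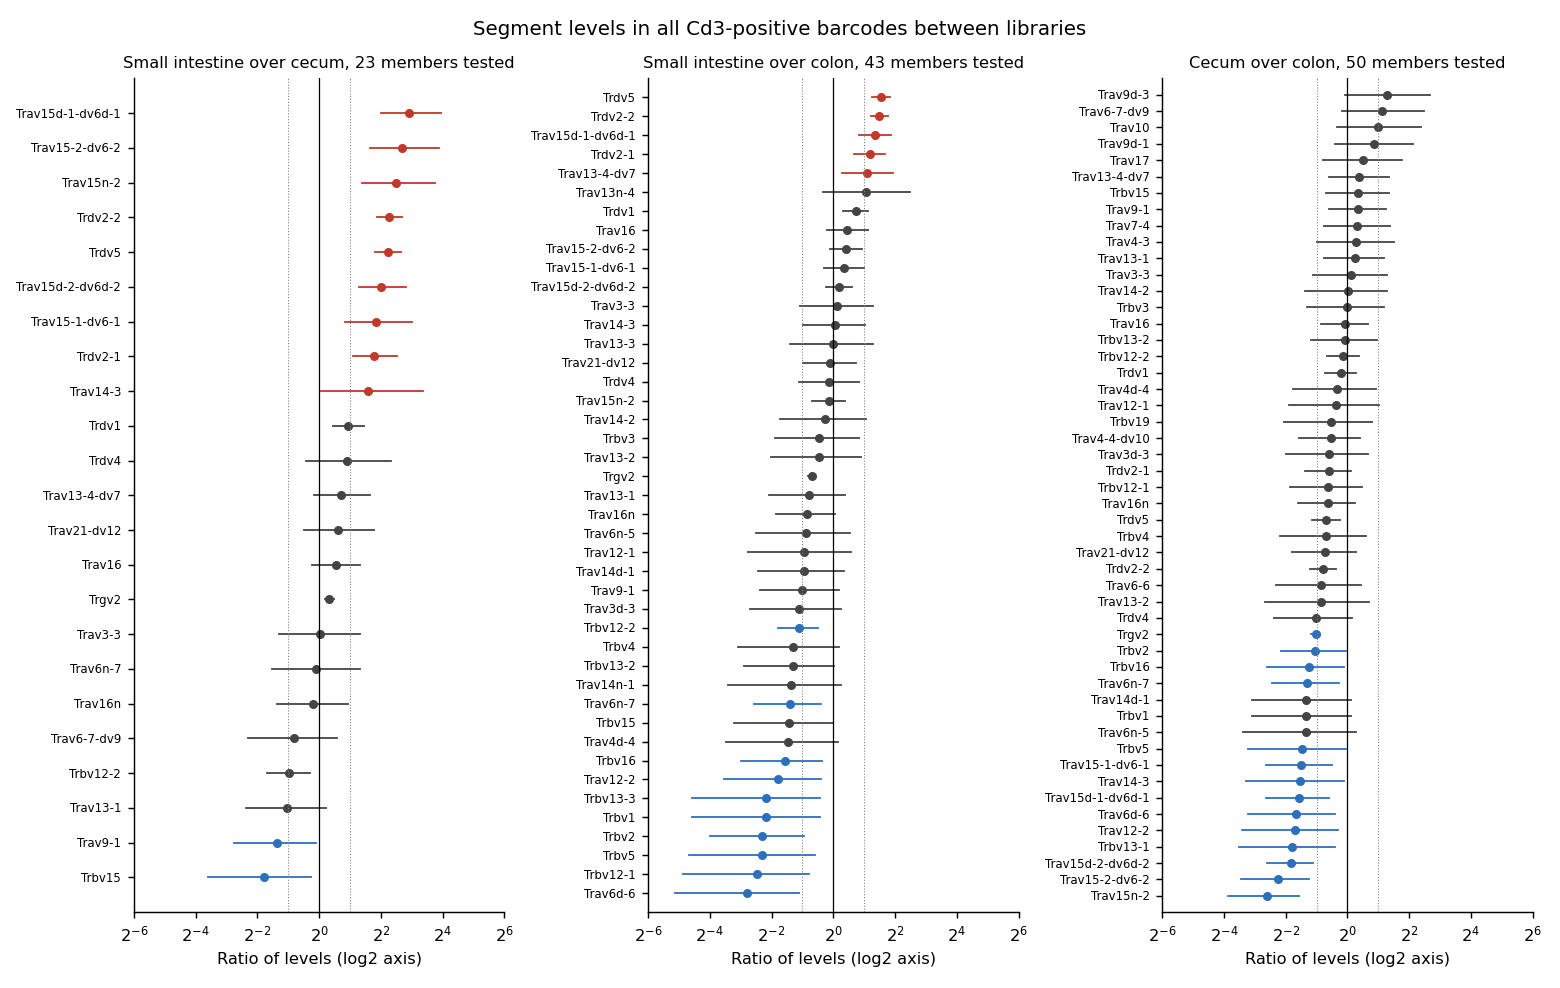
Ratio of CPM over all Cd3-positive barcodes for V segments, small intestine over cecum, small intestine over colon and cecum over colon, on a log axis with exact 95% intervals; red points were called higher, blue lower and grey not called, and dotted lines mark 2-fold. Trdv5 and Trdv2-2 lie to the right in both small intestine panels, at 4.70 and 4.83 against the cecum, and Trav15n-2 lies farthest left in the cecum over colon panel, 6.14-fold lower.

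The stomach differed from the other tissues in Trdv4, Trgv2 and Trdv5, on few UMIs. Trdv4 was at 13.1 CPM in the stomach, against 2.08 CPM in the small intestine, 1.12 CPM in the cecum and 2.27 CPM in the colon. The ratios were 6.28 (2.89 to 13.6), 11.6 (4.64 to 31.7) and 5.76 (2.85 to 11.2). Without barcodes holding markers of other cell types, Trdv4 had fewer than 20 UMIs over both sums in all 3 of these comparisons and was not compared. The same was so against the cecum with the filter on NK markers. Trgv2 was at 14.8 CPM in the stomach, 7.42-fold lower than in the small intestine (4.61 to 12.8), 5.90-fold lower than in the cecum and 12.1-fold lower than in the colon (7.52 to 20.8). Trdv5 was 14.6-fold, 3.11-fold and 5.04-fold lower in the stomach than in these tissues, from 3 barcodes.

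Counts of called segments for the stomach were small and changed under some of the alternatives. Against the small intestine, 1 of 10 segments was called higher and 3 lower, beside 8.56% and 10.8% of all genes, and against the cecum 2 of 7 were higher and 2 lower, beside 8.06% and 10.5%. Against the colon 1 of 13 was higher and 2 lower, beside 8.6% and 10.1%. When the barcode with most UMIs of each gene was left out of each sum, 8 instead of 4 were called against the small intestine and 6 instead of 3 against the colon. The lower calls rose from 3 to 7 and from 2 to 5. Leaving out that barcode takes a larger part of a small sum than of a large one. It therefore cannot show that single barcodes drove the calls. Without barcodes holding markers of other cell types 2 instead of 4 were called against the cecum and 1 instead of 3 against the colon. Fewer segments then had enough UMIs, 5 instead of 7 and 10 instead of 13. In the stomach Trdc-positive barcodes Trdv4 was seen in 0 of the 22 with NK markers and 9 of the 33 without (27.3%).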

How the data were processed

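Each library had a gene list, a barcode list and a matrix of UMI counts, raw counts as deposited by the authors. Per the submitters' processing notes, Cell Ranger and Seurat 3.0.0 were used with GRCm38 (mm10). The files hold no cell annotation. Depth was 9022713 UMIs in 3199 barcodes of the stomach, 11750691 in 3171 of the small intestine, 8568438 in 4244 of the cecum and 12988676 in 3764 of the colon. No doublet caller was run and no further barcode filter was set; an alternative left out barcodes with markers of other cell types.

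The segments, gene lists and comparisons were chosen with earlier results of these data known. Counts were summed over barcodes and given as CPM, scaled to the total UMIs of the same barcodes. Ratios needed at least 20 UMIs over both sums, and a 0 was entered as 3 counts. No test was run. Thinning drew 1000 UMIs per barcode once and left out 1 stomach, 0 small intestine, 62 cecum and 10 colon Cd3-positive barcodes. Named were the 3 segments of each family with the highest share in each library (at least 10 barcodes), the 3 highest and 3 lowest called in each comparison, the gamma and delta segments, Trav1, Trav11, Trav11d and Trbv31. Segments named in complete lists of calls or beside a single result lie outside this rule and were named after their values were seen. The ratio and interval code was tested on simulated data. The work used Python 3.11.15, numpy 2.4.6, scipy 1.17.1 and pandas 2.3.3. Alternatives were 2 Cd3 UMIs, 2 Trdc UMIs (Trdc comparisons), 2 segment UMIs (shares), a minimum of 10 UMIs, barcodes of at least 1000 UMIs, median centring, no barcode with markers of other cell types and leaving out the top barcode of each gene. After the data were seen, a filter on NK markers and a Trdc-negative sum restricted to barcodes with Trac were added. A few of the compared or marker genes are not reported here.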

Additional observations from a re-analysis of the deposited data

Results flagged for a closer look

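Delta segments were also counted outside the Cd3-positive barcodes, above the 3 counts that a count of 0 allows. Among 2830 Cd3-negative stomach barcodes, Trdv2-2 had 57 UMIs in 51 barcodes (1.80%), Trdv4 43 UMIs in 38 (1.34%), Trdv2-1 12 UMIs in 12 (0.424%) and the alpha segment Trav4n-4 4 UMIs in 4 (0.141%). Among 586 of the small intestine, Trdv2-2 had 8 UMIs in 8 barcodes (1.37%) and Trdv4 4 UMIs in 4 (0.683%). Among 710 of the cecum, Trdv4 had 6 UMIs in 6 barcodes (0.845%) and Trdv2-2 4 UMIs in 3 (0.423%). Among 336 of the colon, Trdv2-2 had 10 UMIs in 8 barcodes (2.38%), Trdv2-1 4 UMIs in 4 (1.19%), Trdv4 4 UMIs in 4 (1.19%) and Trgv2 4 UMIs in 2 (0.595%).

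Shares of these segments differed between Cd3-negative barcodes with markers of different cell types. Of the 341 Cd3-negative stomach barcodes with at least 2 UMIs of Ncr1, Klrb1c, Eomes and Klre1, Trdv2-2 was seen in 43 (12.6%, 9.28 to 16.6), Trdv4 in 19 (5.57%) and Trdv2-1 in 10 (2.93%), and neither Trdv5 nor Trgv2 was seen. Of the 38 Cd3-negative stomach barcodes with Trdv4, 22 held at least 2 UMIs of ILC2 markers, 19 of NK or ILC1 markers and 18 of mast cell markers, and a barcode can count under several of these. The same classes held 20, 43 and 17 of the 51 with Trdv2-2. The ILC2 and mast classes were large, at 1018 and 2192 barcodes. Trdv4 was seen in 2.16% and 0.821% of them, and Trdv2-2 in 1.96% and 0.776%. The mast shares lay below those of all Cd3-negative stomach barcodes, 1.34% and 1.80%. In the cecum Trdv4 was seen in 4 of 27 mast-marker barcodes (14.8%) and 2 of 55 with NK or ILC1 markers (3.64%). Of the 58 colon barcodes with NK or ILC1 markers, 7 held Trdv2-2 (12.1%), 4 Trdv4 and 3 Trdv2-1. The source of these UMIs was not tested.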

How the results depend on the processing

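Counts of called segments stayed within 1.5 times the reported count under the alternatives run on counts, apart from the following; the minimum of 2 segment UMIs was run on shares alone (Trgv2 in 0% of stomach, 5.57% of small intestine and 2.57% of cecum Cd3-positive barcodes) and that of 2 Trdc UMIs on the Trdc comparisons alone. Without the barcode holding most UMIs of each gene, 8 segments were called for stomach against small intestine (4 reported) and 6 for stomach against colon (3 reported). Without barcodes holding markers of other cell types, 2 were called for stomach against cecum (4 reported), 1 for stomach against colon, 6 for small intestine against colon (15 reported) and 13 for Trdc in the colon (20 reported); with the filter on NK markers, which was chosen after seeing the data, 1 was called for stomach against cecum. At a minimum of 10 UMIs, 2 were called for Trdc in the stomach (0 reported) and 8 in the cecum (3 reported); the lower minimum admits more segments. The marker filter left fewer segments with enough UMIs. For Trdc in the colon these were 17 instead of 36, and for small intestine against colon 20 instead of 43. Leaving out the top barcode of each gene takes a larger part of small sums. The causes of the moves under these filters were not tested further. Of 1245 recomputed ratios of single segments, 1234 lay within the reported interval and 11 lay outside. None of the ratios that had been called changed direction, and the direction of those not called was not compared. The median log2 ratio of all genes was furthest from 0 for stomach against cecum, at -0.17, stomach against colon, at -0.13, and Trdc in the small intestine, at 0.12, and median centring changed no count by over 1.5 times. No paired analysis was possible because each tissue has 1 library and no replicate numbers are given; Trdc-positive and Trdc-negative sums share a library, and no model over the 4 libraries was fitted. Depth limits the comparisons to the segments that reached 20 UMIs over both sums.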
